A study of Mus musculus with 32 samples.

Results

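The 4 Sall genes, Sall1, Sall2, Sall3 and Sall4, were described here out of 21887 protein-coding genes of the mouse RefSeq table (GRCm38.p6). They were chosen by measured values, the loss of H3K27me3 at Sall3 with an Asxl1 guide, so the H3K27me3 values of guide and control libraries at these genes are a description and were given no test. For each library, the peaks that fall in a gene and 5 kb on each side of it (the window) were taken, and the measure is the covered length in bp or its share of the window. All 4 genes were found in the table. The cells were HoxB8 cells, bone-marrow cells immortalised by an estrogen-dependent HoxB8, 48 h after estrogen removal. CUT&Tag, in which a transposase tethered to an antibody releases DNA beside a mark, was run for 3 marks in 4 genotypes, giving 30 libraries. The control carried the guide sgRNA non targetting and the vector pMICH-Empty (2 libraries per mark). The Asxl1 guide group carried sgRNA Asxl1 B2 and pMICH-Empty (3), the CSF3R group carried the non-targeting guide and pMICH-CSF3R-T618I (3), and the double group carried both the Asxl1 guide and CSF3R-T618I (2). All groups thus carry a guide and a vector, and all went through the same estrogen removal. A single Asxl1 guide was used, CSF3R-T618I came from a vector, and the sources used here do not say whether a group was 1 clone. Nothing in the labels says that replicates came from separate cultures, so each p-value measures the spread between these libraries, which may be technical.

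Sall proteins are zinc-finger transcription factors of embryonic development. Their N-terminal motif recruits the NuRD corepressor, which removes histone acetyl groups and remodels nucleosomes. Sall4 keeps embryonic stem cells undifferentiated, Sall1 is needed for kidney formation, Sall3 acts in the limb, palate and cranial nerves, and Sall2 acts in neural and eye development. In blood progenitors such developmental genes are usually held by Polycomb: PRC2 writes H3K27me3 and PRC1 writes H2AK119ub. Asxl1 is a cofactor of BAP1, the deubiquitinase that takes ubiquitin off H2AK119. H3K4me1 marks enhancers and the surroundings of active promoters, and CSF3R is the receptor for granulocyte colony-stimulating factor, of which T618I is an activating change.

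The peak lists differed in size before any gene was looked at. H3K27me3 lists covered 4.73 to 53.0 Mb, H2AK119ub lists 11.8 to 39.1 Mb and H3K4me1 lists 26.6 to 47.2 Mb. Asxl1 guide replicates 1 and 2 stood apart for H3K27me3, with 4.73 and 53.0 Mb against 12.4 Mb in replicate 3, and the H3K27me3 differences at the Sall genes are also given without 1 or the other where that moves them. Sequencing depth is unknown, so a longer list and more of a mark cannot be told apart. As a check of the cell type, H3K4me1 peaks lay at 7 of 8 progenitor genes (Spi1, Cebpa, Mpo and others) in all 10 libraries. They were absent in every library at 5 of 6 genes of other blood lineages.

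None of the Sall genes had an H3K4me1 peak in its window in any of the 10 H3K4me1 libraries, in any genotype. Without depth, an empty window says only that no peak was listed there. H3K27me3 was present at Sall1, Sall3 and Sall4 in 10 of 10 libraries and at Sall2 in 9. H2AK119ub was present at Sall3 in 10 libraries, at Sall2 in 8, at Sall4 in 6 and at Sall1 in 5. Only genes with a mean share of at least 0.05 over the 10 libraries of a mark entered the tests. This kept all 4 genes for H3K27me3, Sall2 and Sall3 for H2AK119ub, and none for H3K4me1. Sall1 and Sall4, with mean H2AK119ub shares of 0.013 and 0.0154, are therefore given as values only.

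**Figure D1:**
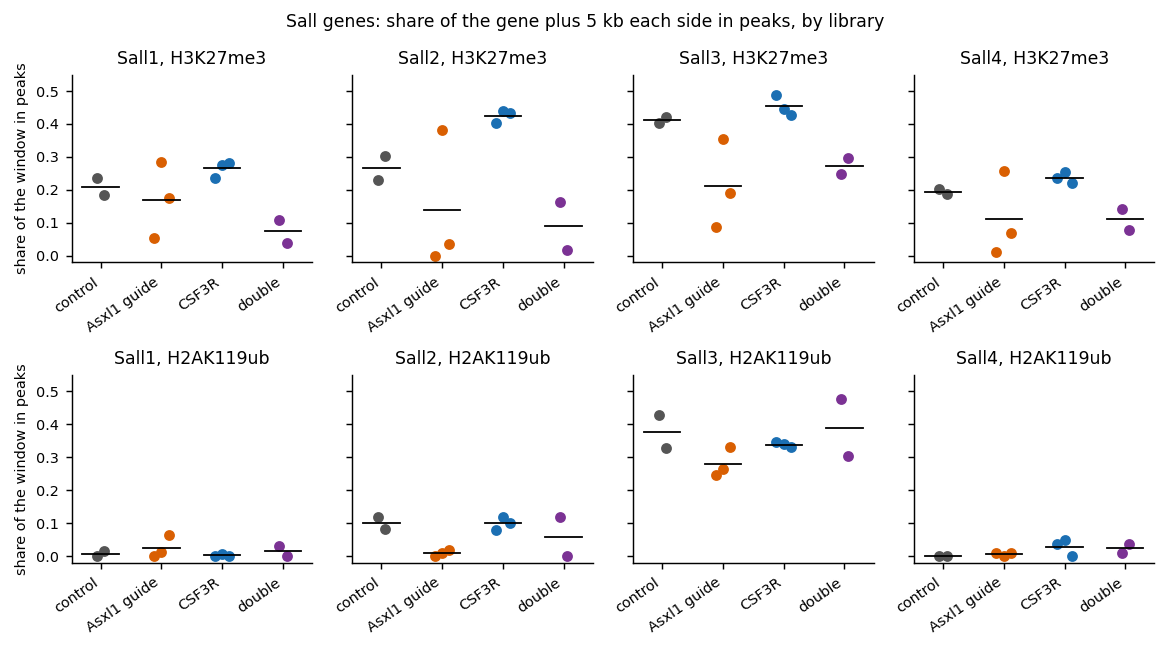
Share of each Sall gene's window in peaks (vertical axis, 0 to 1 scale shown to 0.55), 1 point per library, by genotype, with a black line at the group mean; upper row H3K27me3, lower row H2AK119ub. For H3K27me3, both double libraries lie below all 3 CSF3R libraries at all 4 genes, and the 3 Asxl1 guide libraries spread widely; H2AK119ub is high only at Sall3.

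The promoters of Sall1 and Sall2 are printed because H3K27me3 covered gene starts of very different base composition. RefSeq (GRCm38.p6) places both genes on the minus strand and gives the start sites used here, and the 250 bases before each start are printed 5′ to 3′ on that strand. Capitals mark CG, the dinucleotide of CpG islands, which reads the same on both strands.

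Sall1, outermost start, chr8:89044163-89044412: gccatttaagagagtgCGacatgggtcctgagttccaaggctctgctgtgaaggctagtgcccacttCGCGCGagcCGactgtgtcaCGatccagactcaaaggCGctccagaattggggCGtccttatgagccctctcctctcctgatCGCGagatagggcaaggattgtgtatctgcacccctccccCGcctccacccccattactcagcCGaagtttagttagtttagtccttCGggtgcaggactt
Sall2, outermost start, chr14:52328671-52328920: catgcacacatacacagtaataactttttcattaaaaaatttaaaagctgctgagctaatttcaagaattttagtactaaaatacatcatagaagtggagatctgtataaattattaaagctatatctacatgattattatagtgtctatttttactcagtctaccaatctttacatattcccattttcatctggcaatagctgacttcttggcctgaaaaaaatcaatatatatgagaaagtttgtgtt
Sall2, inner start, chr14:52316324-52316573: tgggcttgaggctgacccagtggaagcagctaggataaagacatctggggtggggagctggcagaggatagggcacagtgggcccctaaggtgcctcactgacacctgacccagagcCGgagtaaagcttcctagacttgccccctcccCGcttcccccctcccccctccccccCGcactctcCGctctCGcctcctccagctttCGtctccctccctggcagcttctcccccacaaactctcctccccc

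The Sall1 stretch holds 13 CG at 56.4% G or C, and 31.5% of 32851 mouse promoter stretches of this length hold at least as many. A pair of inner Sall1 starts, not printed, have 25 and 30 CG. The outermost Sall2 stretch holds no CG at 28.0% G or C, and 99.1% of promoters have at least that G and C content. The inner Sall2 start holds 6 CG, the median of all promoters. H3K27me3 covered the whole printed stretch in 7 of 10 libraries at Sall1, in 7 at the outermost Sall2 start and in 5 at the inner one. H2AK119ub covered the inner Sall2 start in 3 libraries and touched the outermost one in none. Any overlap with H3K27me3 was seen in 9 libraries at the Sall1 stretch and in 7 at the CG-free stretch.

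Sall3 (gene ID 20689, chr18:80966989-80987021, with the lncRNA gene Gm27239 in its window) had the highest mean share of both Polycomb marks among the 4 genes, 0.336 for H3K27me3 and 0.339 for H2AK119ub over 10 libraries. H3K27me3 covered 12071 and 12621 bp of its window in the 2 control libraries. With the Asxl1 guide it covered 2600, 10671 and 5750 bp in replicates 1 to 3. In CSF3R libraries the covered lengths were 14621, 13371 and 12871 bp, and in double libraries 7450 and 8871 bp. All 3 guide libraries lay below both controls, all 3 CSF3R libraries above them, and both double libraries below all of control and CSF3R. Over the 2795 genes tested for H3K27me3, 7.33% had all guide libraries below control and 42% had both double libraries below control. The mean share of the window was 0.411 ± 0.013 in control (SD, n = 2), 0.211 ± 0.135 with the guide (n = 3), 0.454 ± 0.030 with CSF3R (n = 3) and 0.272 ± 0.033 in double (n = 2). The guide value, which chose these genes, differed from control by a share of -0.20 (SE 0.0695), by -0.272 without guide replicate 2 and by -0.138 without guide replicate 1. Guide and double overlapped. In control the order of H3K27me3 shares was Sall3, Sall2, Sall1 and Sall4, and only Sall3 stood clear of its neighbour, since the control libraries of Sall2 and Sall1, and of Sall1 and Sall4, overlapped.

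Positions at Sall3 are counted from the left (lower-numbered) end of the gene. In control, the main stretch of H3K27me3, broken by gaps, began at 11162 and 11262 bp and reached 27612 and 27662 bp, past the right end of the gene (20033 bp long) and of the window. With the guide it lay in shorter islands. A 300 bp island at 17112 to 17412 bp had the same edges in all 3 guide libraries, and a larger one began between 18462 and 18912 bp and ended between 21012 and 21212 bp. Bases held by both controls and by no guide library had their longest runs at 17.4 to 18.5, 21.2 to 22.3 and 23.1 to 24.9 kb (1050, 1050 and 1800 bp). With shorter runs, these bases made up 4300 of 11571 bp, or 37.2%, of what both controls covered. Between CSF3R and double the matching part was 1200 of 11521 bp, or 10.4%, so the double libraries kept most positions in at least 1 library. Around the left end of the gene, peaks were listed in 8 of 10 libraries, and the widest, of 3550 bp, was in guide replicate 2.

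**Figure D2:**
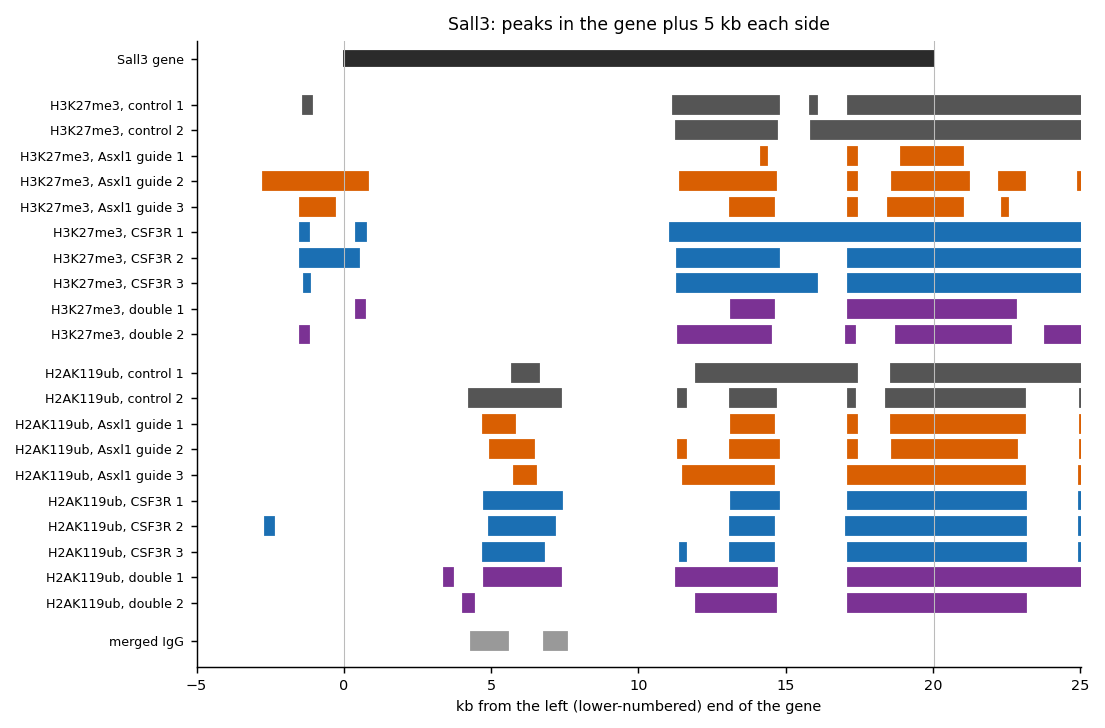
Peaks at Sall3 by library, drawn against distance in kb from the left end of the gene (dark bar), colours by genotype, cut at the window's edges. H3K27me3 is nearly continuous beyond 17 kb in control and CSF3R libraries and broken into islands in the 3 Asxl1 guide libraries, while H2AK119ub keeps its blocks at 13162 to 14612 bp and 18612 to 22862 bp in all 10 libraries; the merged IgG peaks lie between 4312 and 7562 bp.

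H2AK119ub at Sall3 was measured in libraries that played no part in the choice of genes. It covered 12821 and 9871 bp in control, 7421, 7971 and 9921 bp with the guide, 10371, 10221 and 9921 bp with CSF3R, and 14271 and 9100 bp in double. Guide replicate 3 lay above control replicate 2, so guide and control overlapped. The share was 0.378 ± 0.069 in control (SD, n = 2) and 0.281 ± 0.044 with the guide (n = 3), a difference of -0.097 (SE 0.0522, limma with Benjamini-Hochberg adjustment, adjusted p = 0.249). Between double and CSF3R it was 0.050 (SE 0.0522, adjusted p = 0.556), and the interaction of guide and CSF3R was 0.147 (adjusted p = 0.535). Bases covered in every library numbered 5950 for H2AK119ub and 2550 for H3K27me3. Of the bases with H3K27me3 in both controls and in no guide library, 51.2% had H2AK119ub in at least 1 guide library and 24.4% in all 3. Between 17412 and 18412 bp, guide replicate 3 alone among guide libraries had H2AK119ub, and neither control had it there. Every CSF3R library and both double libraries had H2AK119ub over this stretch. The part of H3K27me3 that lay inside H2AK119ub peaks averaged 69.1% over pairs of control libraries and 77.3% over pairs of guide libraries, with ranges of 53.6 to 85.3% and 48.9 to 100.0% that overlapped. It was 56.9% for CSF3R (52.5 to 60.8%) and 90.9% for double (75.5 to 96.1%). Measured the other way, the part of H2AK119ub inside H3K27me3 was 74.5% in control (68.6 to 84.0%) and 51.2% with the guide (26.2 to 70.4%). These ranges overlapped. The same part was 76.0% in CSF3R (74.4 to 78.8%) and 65.5% in double (50.1 to 78.6%). Both parts depend on how much of each mark was listed, and the pairs share libraries, so no test was made.

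Sall2 (gene ID 50524, chr14:52311177-52328670) had H3K27me3 in separate blocks, and the left edge of its window reaches the neighbouring gene Mettl3, an RNA methyltransferase. H3K27me3 covered 6350 and 8350 bp in control, 0, 10500 and 1000 bp with the guide, 11050, 12050 and 11900 bp with CSF3R, and 4500 and 450 bp in double. Guide replicate 1 thus had no peak and guide replicate 2 exceeded both controls, while CSF3R lay above control and double below control without overlap. The share was 0.267 ± 0.051 in control (n = 2), 0.139 ± 0.211 with the guide (n = 3), 0.424 ± 0.020 with CSF3R (n = 3) and 0.090 ± 0.104 in double (n = 2). The larger block lay around the outermost start, from 14424 to 21274 bp in CSF3R replicate 1, and another around the inner start at 5.1 kb. Between them, peaks at about 10 to 13 kb were listed in 7 of 10 libraries, up to 2300 bp wide in CSF3R replicate 2.

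H2AK119ub at Sall2 was listed at the block around the inner start, except for a 250 bp peak in 1 control library. It covered 3300 and 2300 bp in control, 0, 300 and 550 bp with the guide, 2200, 3300 and 2800 bp with CSF3R, and 3250 and 0 bp in double. All guide libraries lay below both controls, and the double libraries disagreed with each other. The mean share with the guide was 0.010 ± 0.010 against 0.102 ± 0.026 in control, a difference of -0.092 (SE 0.0361, limma, adjusted p = 0.135). Leaving out double replicate 1 or 2, which are in neither group and so change the pooled spread and the set of genes tested (2861 and 3015 in place of 2979), gave adjusted p = 0.0451 and 0.0431. The H2AK119ub lists of the guide libraries were shorter too, 11.8 to 16.7 Mb against 19.9 and 21.2 Mb in control. With covered length as a covariate the difference was -0.036 (adjusted p = 0.578). Of 2300 bp with H2AK119ub in both controls, 1450 bp, or 63.0%, had none in any guide library.

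Sall1 (gene ID 58198, chr8:89027242-89044162, with Mir8110 and the lncRNA gene Gm3134 in its window) carried H3K27me3 almost wholly around its start. The part of the window to the right of its midpoint, which holds the start, took 96.7 to 100.0% of it in each genotype. The mark covered 6350 and 4950 bp in control, 1450, 7650 and 4700 bp with the guide, 6350, 7450 and 7600 bp with CSF3R, and 2950 and 1050 bp in double. Guide and control overlapped, as did CSF3R and control, and both double libraries lay below all control and CSF3R libraries. Mean shares were 0.210 ± 0.037, 0.171 ± 0.115, 0.265 ± 0.025 and 0.074 ± 0.050 in that order. In both double libraries the mark ended at 17159 bp, just past the start at 16.9 kb, whereas in CSF3R it ran on to at least 19909 bp. This outer run of 2750 bp and an inner one of 1600 bp made up 68.5% of the bases held by all CSF3R libraries. H2AK119ub reached at most 1700 bp, in guide replicate 3, and 5 libraries had none.

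Sall4 (gene ID 99377, chr2:168748332-168767201, with the lncRNA gene Gm14261 at its right end) carried H3K27me3 at its right end in every library. The lengths were 5850 and 5400 bp in control, 300, 7400 and 2000 bp with the guide, 6850, 7350 and 6350 bp with CSF3R, and 4100 and 2300 bp in double. Guide replicate 2 exceeded both controls and the other two lay below, CSF3R lay above control, and double lay below control. Mean shares were 0.195 ± 0.011, 0.112 ± 0.128, 0.237 ± 0.017 and 0.111 ± 0.044. Bases lost from all CSF3R to both double libraries came to 2450 of 6350 bp, or 38.6%. H2AK119ub was listed in no control library and covered at most 1450 bp, in CSF3R replicate 2.

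**Figure D3:**
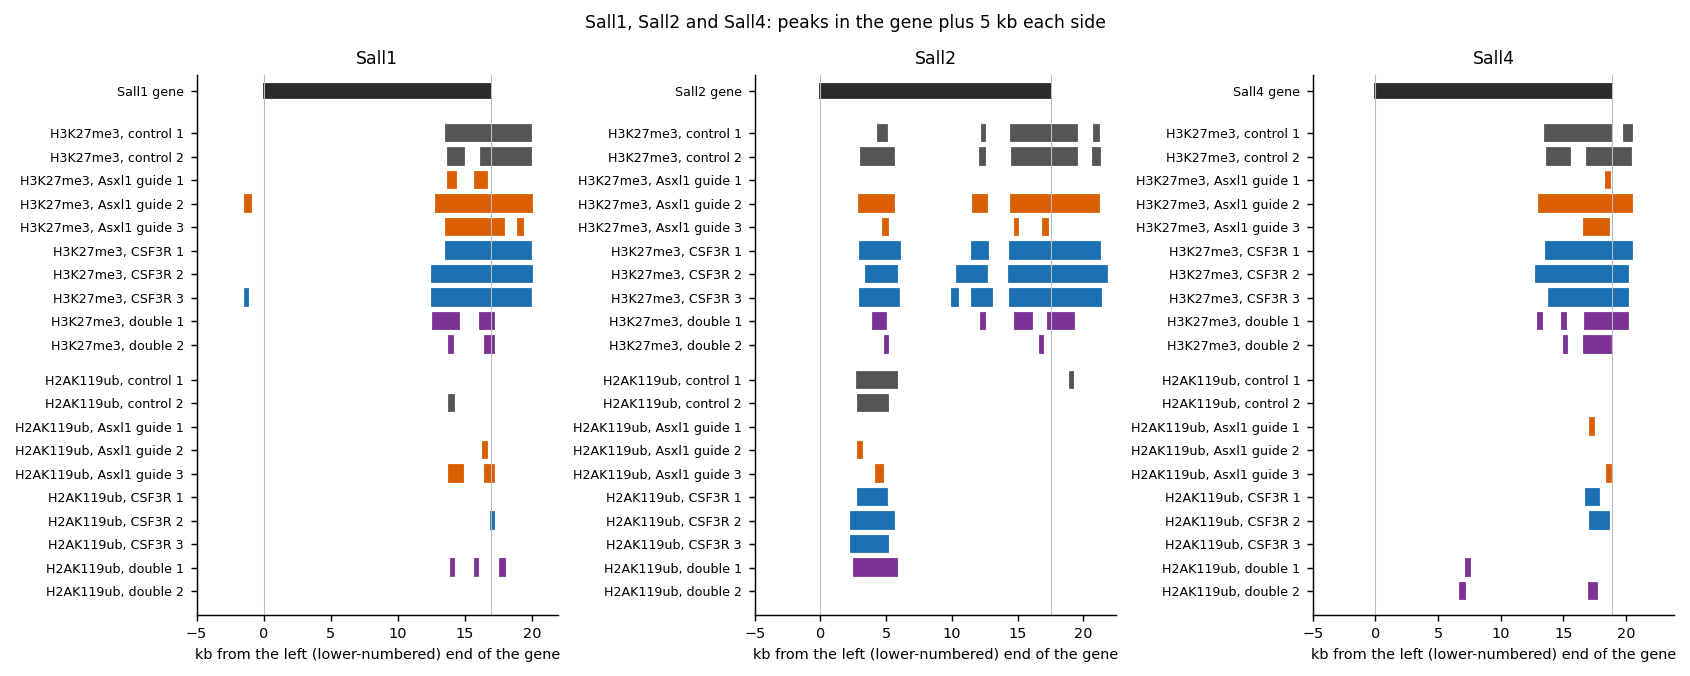
Peaks at Sall1, Sall2 and Sall4 by library, against distance in kb from the left end of each gene (dark bar), colours by genotype. H3K27me3 gathers at the right end of each gene, which is the start of Sall1 and Sall2, and Sall2 has a separate block at about 3 to 6 kb that also holds H2AK119ub.

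The comparison of double with CSF3R asks what the Asxl1 guide does in cells that also carry CSF3R-T618I, and the libraries it compares are not those that chose the genes. Its SE and p do draw on guide and control libraries, because limma pooled the spread over all 4 genotypes. They are therefore not independent of the choice. Both double libraries had less H3K27me3 than all 3 CSF3R libraries at all 4 genes. The same held for 83.5% of the 2795 genes tested, so the count of 4 of 4 is near the background. Mean covered length in double was 0.28 of that in CSF3R at Sall1, 0.212 at Sall2, 0.599 at Sall3 and 0.467 at Sall4. No member passed limma, in which 11.9% of genes did (333 lower and 1 higher). At an unadjusted p under 0.05 there were 3 members, beside 1125 of 2795 genes. The differences in share were -0.334 at Sall2 (SE 0.1054, adjusted p = 0.0683), -0.191 at Sall1 (SE 0.0634, adjusted p = 0.0757) and -0.182 at Sall3 (SE 0.0695, adjusted p = 0.0981). At Sall4 the value was -0.126 (SE 0.0665, adjusted p = 0.175). The median over the members was -0.186, and that of all tested genes was -0.126. Sall2 lay lowest among the 4, with 9.84% of tested genes below it, and Sall4 sat at 49.9%.

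**Figure D4:**
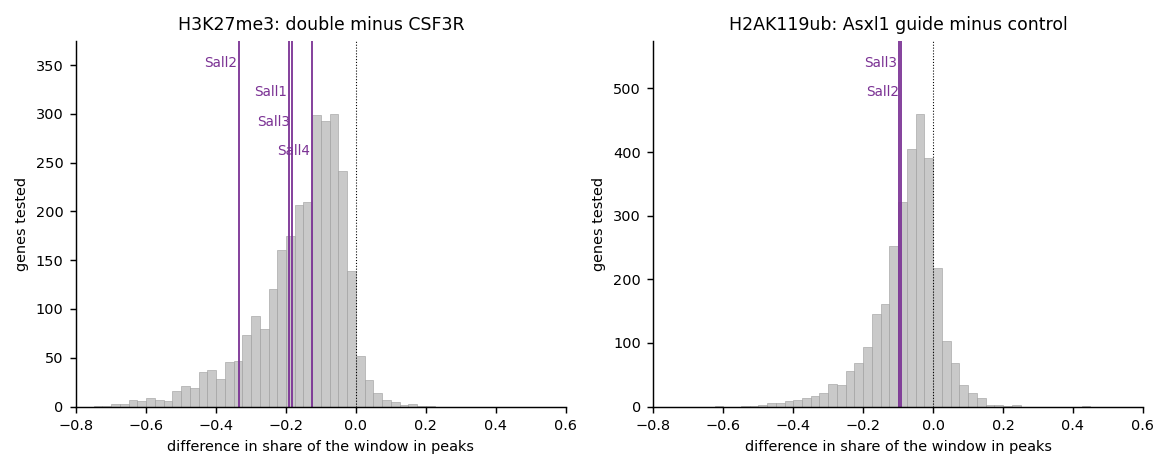
Number of tested genes (vertical axis) by difference in the share of the window in peaks (horizontal axis, bins of 0.025), with the Sall genes as vertical lines; left, H3K27me3, double minus CSF3R; right, H2AK119ub, Asxl1 guide minus control. The Sall genes lie within the range of other genes, with Sall2 farthest to the left for H3K27me3 at -0.334.

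These calls turn on single libraries. Without Asxl1 guide replicate 2, which is in neither group, all 4 genes passed (adjusted p = 0.00175 at Sall2, 0.00614 at Sall3, 0.00843 at Sall1 and 0.0102 at Sall4), and 1725 of 2626 genes did. Without guide replicate 1, Sall1, Sall2 and Sall3 passed and 694 genes did. With double replicate 1 or 2 left out no gene passed in limma, with 692 and 461 genes at an unadjusted p under 0.05. The double lists covered 19.2 and 14.2 Mb of H3K27me3 and the CSF3R lists 31.3 to 42.2 Mb. With covered length as a covariate, Sall1 (-0.121, adjusted p = 0.035) and Sall2 (-0.205, adjusted p = 0.0211) passed, and Sall3 was at -0.104 (adjusted p = 0.0741) and Sall4 at -0.050 (adjusted p = 0.262). With this covariate limma called 753 of 2795 genes. In a 10 kb window at the gene start, Sall1 (-0.505, adjusted p = 0.0424) and Sall3 (-0.340, adjusted p = 0.0239) passed, though the end of Sall3 was taken by coverage because its strand was not given. In that window limma called 810 of 4213 genes.

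**Figure D5:**
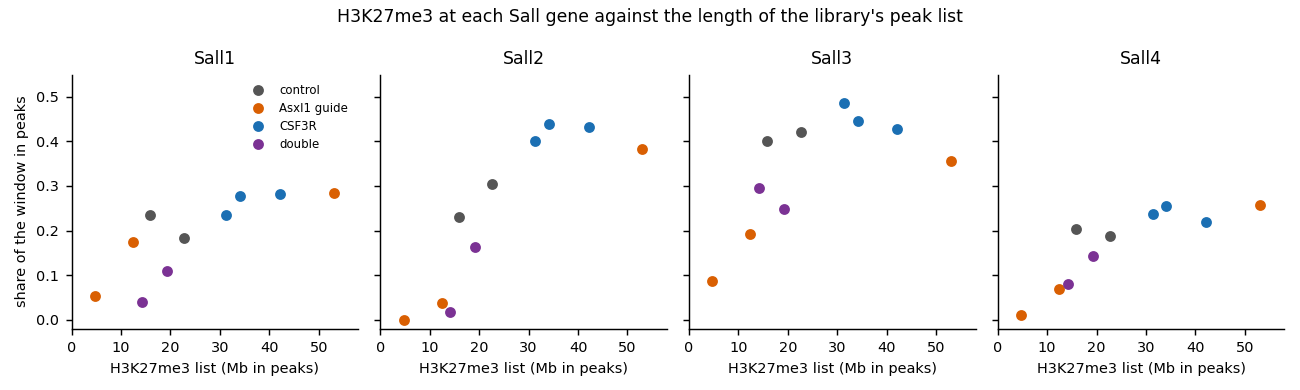
H3K27me3 share of each Sall gene's window (vertical axis) against the Mb covered by that library's whole H3K27me3 list (horizontal axis), 1 point per library, coloured by genotype. The shortest list, guide replicate 1 at 4.73 Mb, has the lowest share at Sall2, Sall3 and Sall4. The longest list, guide replicate 2 at 53.0 Mb, lies above both controls at Sall1, Sall2 and Sall4. It lies below both at Sall3, the gene on which the choice was made.

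CSF3R against control shares its control libraries with the comparison that chose the genes. H3K27me3 in all CSF3R libraries lay above both controls at Sall2, Sall3 and Sall4, and at 70.1% of tested genes. Because those control values helped to choose the genes, the members' differences are given as a description: 0.157 at Sall2, 0.055 at Sall1, 0.043 at Sall3 and 0.042 at Sall4. Over all genes limma called 1% in this comparison, and the median difference was 0.0917. With covered length as a covariate the sign turned at Sall1, Sall3 and Sall4 (-0.0023, -0.0215 and -0.0202), the CSF3R lists being longer than the 15.9 and 22.7 Mb of control.

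For the guide against control, limma called 0% of genes for H3K27me3, with 123 of 2795 at an unadjusted p under 0.05, and the members' values there are a description. They were -0.20 at Sall3, -0.128 at Sall2, -0.083 at Sall4 and -0.039 at Sall1, against a median of -0.0164 over all tested genes. Their size depended on single guide libraries. At Sall3 every guide library lay below both controls, as at 7.33% of tested genes. Without replicate 1 the differences were -0.138 at Sall3, -0.058 at Sall2, -0.032 at Sall4 and 0.0195 at Sall1, so that the sign turned at Sall1. Without replicate 2 they were -0.272, -0.249, -0.155 and -0.096 in the same order. Leaving out replicate 3 gave -0.0764 at Sall2, and leaving out control replicate 1 or 2 gave -0.013 and -0.065 at Sall1. In a 10 kb window at the gene start the differences were -0.556 at Sall3, -0.296 at Sall2, -0.241 at Sall4 and -0.12 at Sall1. These are shares of a shorter window, and the ends of Sall3 and Sall4 were taken by coverage. At Sall1, Sall2 and Sall4, guide replicate 2 lay above both controls. For H2AK119ub in the same comparison, limma called 9.6% of 2979 genes and neither Sall2 nor Sall3, of which Sall2 had an unadjusted p under 0.05 (0.0327), beside 866 genes. Every guide library lay below both controls at Sall2 and not at Sall3, and 58% of tested genes showed that pattern. In the other comparisons of H2AK119ub, 0.47% of genes were called between CSF3R and control, 10.6% between double and CSF3R and 0% for the interaction (309 of 2979 at an unadjusted p under 0.05), and neither member was called in any. At Sall2 these values were -0.0012 (adjusted p = 0.998), -0.042 (adjusted p = 0.478) and 0.050 (adjusted p = 0.788).

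Genes whose H3K27me3 share moved most like a Sall gene over the 10 libraries were named by Pearson's r, a description in which all genes share the same libraries and list lengths. Sall3 was closest to Hoxa13 (r = 0.989), a limb and genital homeobox gene, Otp (0.981), a hypothalamic homeobox gene, and En2 (0.977), a midbrain homeobox gene. Sall2 was closest to Ckb (0.993), a creatine kinase, Acvrl1 (0.992), a receptor of the TGF-beta family, and Selenov (0.991). Sall1 was closest to Cdhr2 (0.976), Slc6a5 (0.971), a glycine transporter, and Nkx2-9 (0.97), and Sall4 to Dll1 (0.98), a Notch ligand, Dnajc22 (0.979) and Slc10a4 (0.978). Median r over all genes was 0.719 for Sall3, 0.844 for Sall2, 0.753 for Sall1 and 0.794 for Sall4. Among the members, Sall2 and Sall4 were most alike (0.954) and Sall1 and Sall3 least (0.737). For H2AK119ub, Sall2 was closest to Cldn10 (0.99), Otp (0.979) and Slc16a13 (0.973), and Sall3 to Kcnc4 (0.936), Cgn (0.932) and Flt1 (0.922). Median r over all genes for this mark was 0.654 for Sall2 and 0.465 for Sall3. Otp appears for Sall3 with H3K27me3 and for Sall2 with H2AK119ub.

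None of the 15 genes for subunits of NuRD, the corepressor that Sall proteins recruit, had enough H3K27me3 to be tested. For H2AK119ub 2 were tested, and both were called lower with the guide than in control, where 9.6% of all tested genes were called and 84.4% had a lower value. Mta1 had a share of 0.107 ± 0.004 (SD, n = 3) against 0.224 ± 0.022 (n = 2), with limma adjusted p = 0.0308. Chd5, a chromodomain remodeller of neural cells, had 0.040 ± 0.007 (n = 3) against 0.223 ± 0.016 (n = 2), with adjusted p = 0.0348. Between double and CSF3R both had an unadjusted p under 0.05 and neither was called, and in the other comparisons of H2AK119ub neither reached either threshold. Of 27 partners and targets of Sall factors in development, 19 were tested for H3K27me3, and 1 was called, between double and CSF3R, where 12 had an unadjusted p under 0.05. Over all tested genes 334 of 2795, or 11.9%, were called there and 1125 had an unadjusted p under 0.05. The gene called was Sox2, a pluripotency factor that works with Sall4, with 0.030 ± 0.009 in double (n = 2) and 0.311 ± 0.055 in CSF3R (n = 3, limma adjusted p = 0.0467). The list's median there was -0.281, against -0.126 over all genes. For H2AK119ub 16 of the 27 were tested and none was called in any comparison by limma, with 0 to 3 genes at an unadjusted p under 0.05. The list had a median of 0.0039 for the guide against control beside -0.0604 over all genes. For H3K4me1 2 genes of each list were tested, and Lin28a, an RNA-binding pluripotency factor, was lower in double (0, both libraries) than in CSF3R (0.156 ± 0.074, n = 3, limma adjusted p = 0.0419), in a comparison that called 10.5% of genes for H3K4me1.

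Of the 4 windows, only that of Sall3 held IgG peaks, which show where the assay gives signal without a mark. There were 2, covering 2000 bp at 4312 to 5562 and 6812 to 7562 bp. H2AK119ub overlapped them in 8 of 10 libraries and H3K27me3 in none. Without peaks that overlap IgG, the difference of guide and control for H2AK119ub at Sall3 was -0.074 (limma adjusted p = 0.451), and the H3K27me3 difference stayed at -0.20. This filter removed the H2AK119ub peak there from control replicate 2 and guide replicates 1 and 2. In control replicate 1 (5712 to 6612 bp) and guide replicate 3 (5762 to 6512 bp) the peak lay between the IgG peaks and stayed. The filtered value is therefore not free of that block.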

How the data were processed

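CUT&Tag peaks of 30 libraries and 1 merged IgG list (2 libraries, from the Asxl1 guide and CSF3R groups) were used. No IgG library came from the control or double group. The authors deposited peak positions in bp, a kind of value other than counts or signal: 3 columns, with no height or score, which the files show as widths of at least 200 bp. The submitters' processing notes name mm10, Bowtie2 2.4.1 and deepTools 3.5; the peak caller is not given in the sources used here. For 21887 protein-coding genes, the share of the gene plus 5 kb each side in peaks was computed per library (Python, numpy and pandas). Genes with a mean share of at least 0.05 over a mark's 10 libraries entered a linear model in limma (version 3.58.1, R version 4.3.3) that gave each genotype its own mean; tests were 2-sided, with Benjamini-Hochberg adjustment inside each mark and comparison. They were called at adjusted p under 0.05. The fit was tested on simulated data with independent normal noise. These held no differences in list length between libraries and no unequal spread between genotypes, so that test cannot speak to either. The members and gene lists were chosen with earlier results of these data known. No test is given for members in the H3K27me3 comparison of guide and control or the interaction that contains it, and H3K27me3 in CSF3R against control, with the same control libraries, is described by its values. Genes were named by rule: all members, the 3 genes of highest r per member and mark (Gm and Rik symbols and overlapping windows left out), neighbours in the window, and called list genes. Deviations of same-numbered libraries had a median r over 13 pairs of 0.024 for H3K27me3, 0.035 for H2AK119ub and 0.199 for H3K4me1, with 3, 0 and 8 pairs over 0.1; since not every pair was, the numbers were not taken to pair the libraries. Alternatives were a 2 kb flank, a 10 kb start window, no filter, no peaks under 400 bp, no peaks overlapping IgG, covered length as a covariate, a replicate block and each library left out.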

Additional observations from a re-analysis of the deposited data

Results flagged for a closer look

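The merged IgG list, which entered no comparison, held 2000 bp of peaks inside the Sall3 window, in libraries where no mark was targeted. The windows of Sall1, Sall2 and Sall4 held none. The groups had 2 or 3 libraries, too few to look for single outlying values.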

How the results depend on the processing

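No test could be made of H3K4me1, for which no peak was listed at any Sall gene. Of 268 differences recomputed for members that were tested, 243 kept direction and side of the threshold, 14 passed it and 11 turned sign. For H3K27me3 between double and CSF3R, 0 members passed, against 2 in a 10 kb start window and 2 with covered length as a covariate, and 0 to 4 with each library left out. There the start window called 810 of 4213 genes and the covariate 753 of 2795. For H2AK119ub between guide and control, 0 members passed with any guide or CSF3R library left out. The fits without a double library are given above at Sall2. The 268 differences take in H3K27me3 in CSF3R against control. The members' values there are a description, because its controls helped to choose the genes. The replicate block changed no member's call: in H3K27me3 between double and CSF3R it gave -0.358 at Sall2 (limma adjusted p = 0.113) and 13 genes called in place of 334. It gave 131 in place of 286 for H2AK119ub between guide and control. Among list genes, adjusted p with the block was 0.0806 for Mta1, 0.068 for Chd5, 0.101 for Sox2 and 0.0295 for Lin28a. The block was run although the numbers were not taken to pair libraries; for H3K4me1, same-numbered libraries had a median r of 0.199 and others -0.166.

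With covered length as a covariate, H3K27me3 in CSF3R against control was -0.0023 at Sall1, -0.0215 at Sall3 and -0.0202 at Sall4, and the H2AK119ub interaction at Sall2 was -0.0307. Without peaks under 400 bp, H2AK119ub in CSF3R against control at Sall2 was 0.0033. With each library left out, that value ran from -0.0194 to 0.017 at Sall2 and from -0.0882 to 0.01 at Sall3. Between double and CSF3R it ran from -0.1006 to 0.0176 at Sall2 and from -0.0357 to 0.1365 at Sall3, and the Sall2 interaction from -0.0091 to 0.1091. The cause was not tested.

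Genes called in limma moved by over 1.5 times in several settings. H3K27me3 between double and CSF3R (334) gave 810 in the start window, 753 with covered length as a covariate, 513 without a filter and 218 without peaks overlapping IgG, and 0 to 1725 with each library left out. H3K27me3 between CSF3R and control (28) gave 187, 264, 260 and 62 in that order, 60 with a 2 kb flank, 0 with the replicate block and 0 to 826 with each library left out. Between guide and control (0) it gave 155 with the covariate and 394 without guide replicate 2. H2AK119ub between guide and control (286) gave 35 with the covariate, 124 without a filter, 110 without IgG overlaps and 18 to 452 with each library left out. Between double and CSF3R (315) it gave 943, 741 and 179 there, 29 with the replicate block and 82 to 594 with each library left out. Between CSF3R and control (14) it gave 30, 50 and 10, 23 with a 2 kb flank, 1 with the replicate block and 0 to 108 with each library left out. Its interaction (0) gave 149 without a filter and at most 4 in the other settings that kept all libraries, and 224 without double replicate 2. Depth is unknown, which limits what a missing peak shows.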
